A study of Mus musculus with 3 samples.

Results

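The matrix of the developing brain was followed in cultured mouse neural stem cells through 9 genes that encode its chondroitin sulfate proteoglycans, tenascins and a link protein: Vcan, Ncan, Bcan, Acan, Tnc, Tnr, Hapln1, Cspg5 and Ptprz1. They were picked by name for their known role, with earlier results of these data known, and all 9 were found among the 16977 genes of the deposited table. The cells were neural stem cells of the C57BL/6J strain at embryonic stage E12.5, grown on laminin with epidermal growth factor (20 ng/ml) and fibroblast growth factor (10 ng/ml). They carried a lentiviral short hairpin RNA, either a control hairpin (shControl, 1 library) or one against PHF2 (shPHF2, 2 libraries given as biological replicates); PHF2 is a histone demethylase family protein. The sources used here do not give the number of embryos or cultures behind each library, the time after infection or the hairpin sequence, so the spread between the shPHF2 libraries may be partly technical. No second control and no second hairpin was analysed here. The deposited column of shPHF2 replicate 2 is named in another style than the other columns, and whether it was prepared apart from them is not stated.

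In brain tissue the space between cells is filled by a network built on hyaluronan, a long unbranched sugar chain. Lecticans (versican, neurocan, brevican and aggrecan) bind hyaluronan at one end, an attachment that link proteins fasten, and bind tenascins at the other end. The chondroitin sulfate chains they carry are known for restraining neurite growth and for binding growth factors, and radial glia, the stem cells of the embryonic cortex, are a main source of tenascin C and of the receptor phosphatase PTPRZ1.

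Values are normalised read counts, that is, read counts scaled by 1 size factor per library. Between 26302177 and 37171026 reads per library fell in genes, and the 9 genes together took 0.502% of these in shControl and 0.433% and 0.523% in shPHF2 replicates 1 and 2. Phf2 was listed at 2593 in shControl, 985 in replicate 1 and 714 in replicate 2, so both libraries labelled shPHF2 held less of its transcript (limma, adjusted p = 0.0085). The neural stem cell markers Nes and Vim were abundant in every library, while Hes5 stayed at or below 39.9 normalised reads. The list of 10 summed to 324618 in shControl, 337276 in replicate 1 and 383280 in replicate 2 and was led by Nes (118161, 101381 and 98053 in that order) and Vim (77235, 116785 and 132042). Markers of microglia, vessels and fibroblast collagen were scarce: the 4 microglia markers found in the table summed to 111 to 238, the 7 of endothelium and pericytes to 152 to 218, and the fibroblast collagen genes Col1a1, Col1a2 and Col3a1 stayed at or below 6.67 each. The 6 fibroblast markers found summed to 2120, 1595 and 892 in shControl, replicate 1 and replicate 2, nearly all from Fn1 and Pdgfra. The 8 astrocyte markers summed to 25623, 23405 and 23510, mostly from Glul, with Aqp4 at 0 in shControl. The 8 neuron markers summed to 61972, 41835 and 40810, nearly all from Map2 (60020, 37935 and 38518), whereas Tubb3, at 104, 198 and 346, was higher in both shPHF2 libraries. The part of any of these cells in the results that follow was not tested.

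Versican was the 1 gene of the 9 that passed the test. Of the 8 genes whose mean reached 10, 1 rose and 0 fell at an adjusted p under 0.05 (limma on log2 of the value plus 1, Benjamini-Hochberg over all 14148 genes tested), against 7.22% of all genes called higher and 7.11% called lower. At an unadjusted p under 0.05 in limma stood 4414 of the 14148 genes tested, counting both directions. Of the 9, Vcan was higher and Tnr lower at that cut. Tnr also passed as lower with edgeR, with DESeq2 and in the authors' deposited table. Those tests called 8.06%, 7.69% and 7.96% of their genes lower, and 7.12%, 7.77% and 8.04% higher; each called Vcan as the only higher gene of the 9. A count of 1 in 8 is near these shares, and is no result about the group. Both shPHF2 libraries lay above the control for 3 of the 9 (Vcan, Ncan and Bcan) and below it for 4 (Acan, Tnc, Tnr and Ptprz1), where 41.4% and 41.8% of all genes tested lay above and below. The shControl value is from 1 library, and an exact permutation test of 1 library against 2 cannot go below p = 0.333.

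**Figure D1:**
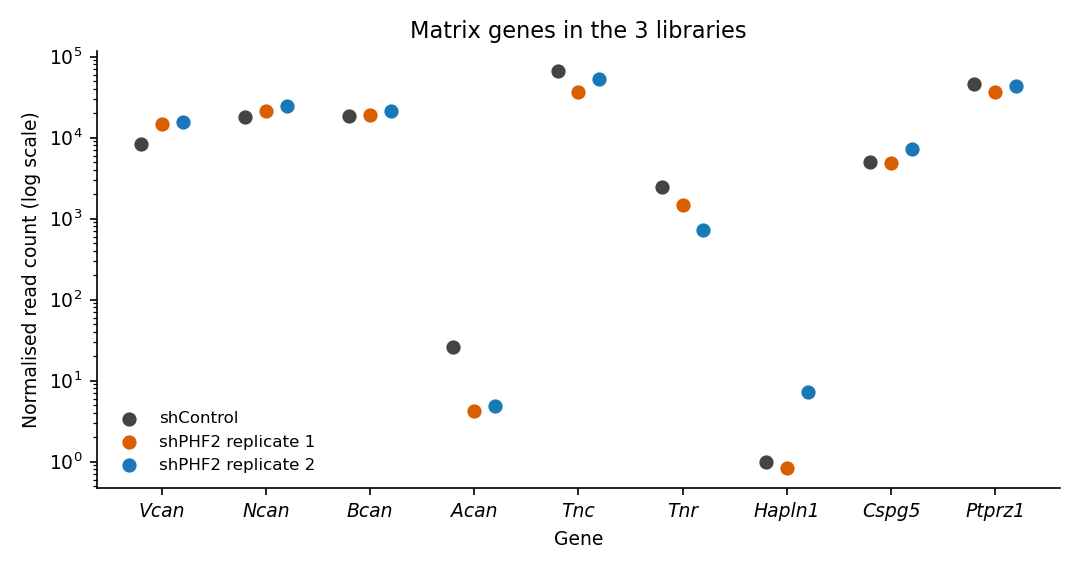
Normalised read count (vertical axis, log scale) of each of the 9 genes, with 1 point per library. Vcan stands at 8432 in shControl and at 14847 and 15684 in the shPHF2 libraries, Tnr is lower in both, and Acan and Hapln1 lie near the detection limit.

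Among the lecticans, Vcan encodes versican, the lectican of embryonic and migrating-cell matrix. Normalised reads numbered 8432 under the control hairpin, 14847 in shPHF2 replicate 1 and 15684 in shPHF2 replicate 2. The shPHF2 libraries lay close together, differing by 0.08 on the log2 scale, where the median gene differed by 0.21, and both lay well above the control. Their mean of 15266 ± 592 (SD, n = 2) was 181% of the control, and the log2 fold change was 0.86 with an SE of 0.19 (adjusted p = 0.025 in limma). The change was 0.82 with replicate 1 alone and 0.90 with replicate 2 alone. The authors' deposited table gives the gene a log2 fold change of 0.86 and an adjusted p of 0.0017. The call was lost in limma without the mean-variance trend, with no filter on low values and with quantile normalization (adjusted p = 0.17, 0.14 and 0.096), settings in which limma called 0 genes in all.

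Ncan (GRCm38, chromosome 8, 70093085 to 70120873, minus strand) encodes neurocan, a lectican made mainly in the nervous system. Its values were 17778 in shControl, 21096 in replicate 1 and 24630 in replicate 2. Both shPHF2 libraries were above the control, but the difference of 0.36 on the log2 scale (SE 0.22) did not pass the test (limma, adjusted p = 0.31). Bcan (chromosome 3, 87987531 to 88000230, minus strand), the gene of brevican, the smallest lectican, varied little across the libraries, at 18221, 19075 and 20980 in the same order. Its log2 difference was 0.13 (SE 0.21; limma, adjusted p = 0.71).

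Acan (chromosome 7, 79053483 to 79115099, plus strand) encodes aggrecan, the main lectican of cartilage and of the nets around mature neurons, and it was almost undetected. The libraries held 26 reads in shControl, 5 in replicate 1 and 4 in replicate 2, or 25.9, 4.17 and 4.82 normalised reads. Each shPHF2 library was lower, and the ratio of reads was 0.171 with an exact 95% interval of 0.0706 to 0.377 that covers counting error only. Acan met the minimum mean only through its control value, so a difference was built into its being tested. The log2 fold change of -2.29 carried a standard error of 1.07 and did not pass (limma, adjusted p = 0.19).

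**Figure D2:**
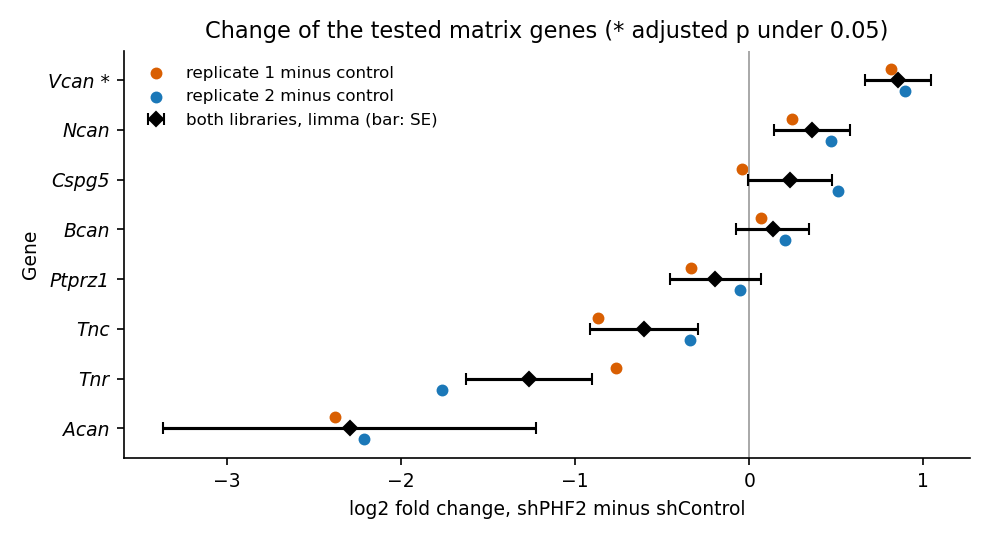
log2 fold change of shPHF2 against shControl (horizontal axis) for the 8 genes tested, as the limma estimate with its standard error (diamonds and bars) and for each shPHF2 library alone (circles). Vcan, at 0.86, is marked as the gene with an adjusted p under 0.05; the libraries of Tnr, at -0.76 and -1.76, stand farther apart than those of the other 7 genes.

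Because the lecticans differ in length, their levels were compared per kilobase of annotated exon. On that scale brevican led in every library, with 4484 normalised reads per kilobase in shControl, 4694 in replicate 1 and 5162 in replicate 2. Neurocan followed at 2471, 2932 and 3423, and versican at 583, 1027 and 1084 in the same order. Versican thus made up 7.73% of the summed lectican level per kilobase in shControl, 11.9% in replicate 1 and 11.2% in replicate 2. The share of brevican was 59.5%, 54.2% and 53.4%, and that of neurocan 32.8%, 33.9% and 35.4%. These shares have no estimate of error in the control and were not tested. Aggrecan was at most 0.0460% of the sum.

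The link protein genes sit beside the lectican genes in the mouse genome, in 4 pairs with no annotated protein-coding gene between them (GENCODE M21, GRCm38). On chromosome 13, the minus-strand gene Vcan (89655312 to 89742509) and the plus-strand gene Hapln1 (89539796 to 89611652) leave a gap of 43.7 kb. Bcan and Hapln2 are 21.5 kb apart on chromosome 3, Ncan and Hapln4 2.22 kb apart on chromosome 8, and Acan and Hapln3 end 2 bases apart on opposite strands of chromosome 7. Whether the counting used strand is unknown, so reads near that last junction cannot be told apart. The link genes were far less abundant than the lectican genes next to them, except beside Acan.

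Hapln1, the most studied link protein gene, had 1 read in shControl, 1 in replicate 1 and 6 in replicate 2 and was not tested. With 1 control read, the ratio of reads was 3.46 with an exact 95% interval of 0.445 to 156, so no change was detectable at this depth. Its level was at most 1.23 normalised reads per kilobase in any library, beside a Vcan level of 583 or more. Hapln2, a link protein of myelinated axons, had 1, 1 and 2 reads. Hapln3 had 15 reads in shControl, 28 in replicate 1 and 16 in replicate 2, and Hapln4, a brain link protein, had 107, 168 and 180 normalised reads. On the normalised scale the shPHF2 libraries were above the control for Hapln3 and Hapln4, and neither passed (limma, adjusted p = 0.73 and 0.24). Hapln4 was thus the most abundant link protein gene, at 27.2, 42.7 and 45.8 normalised reads per kilobase.

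**Figure D3:**
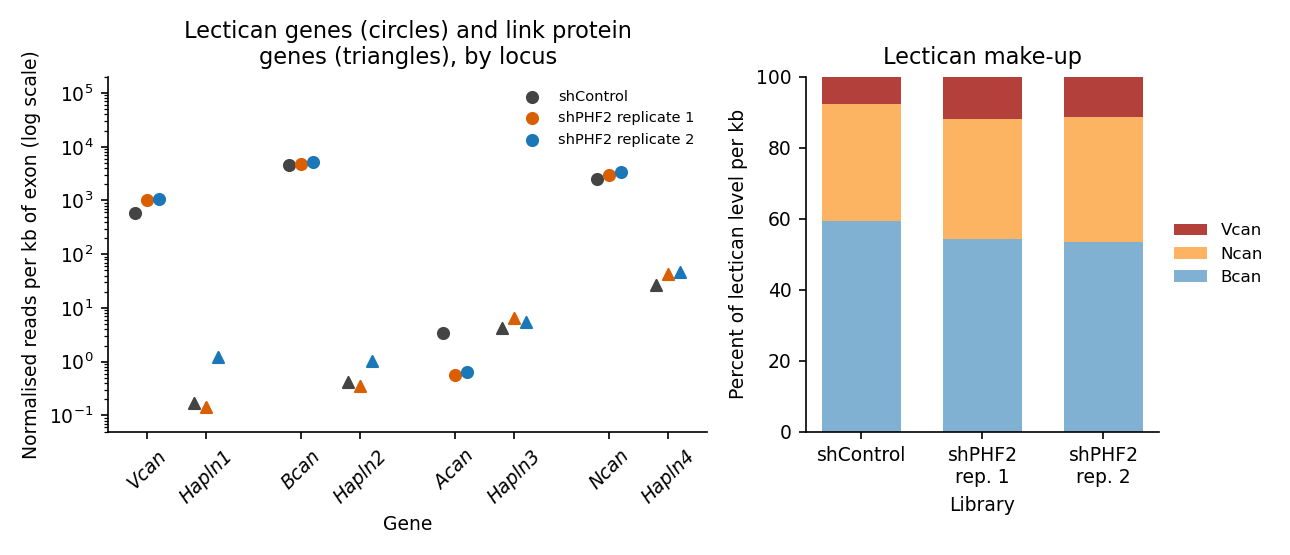
Left, normalised reads per kilobase of exon (log scale) of each lectican gene (circles) and of the link protein gene beside it in the genome (triangles), 1 point per library. Right, the percentage of the summed lectican level per kilobase taken by Vcan, Ncan and Bcan in each library, where the Vcan band is 7.73% in shControl and 11.9% and 11.2% in the shPHF2 libraries (Acan, at most 0.0460%, is not drawn).

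The start regions of 3 of these genes are printed because they set the called gene, Vcan, beside its near-silent neighbour Hapln1 and beside Tnr, the gene with the lowest value relative to control among the well-covered ones. Each line gives the 250 bases before the RefSeq start (GRCm38.p6), 5′ to 3′ on the strand of the gene, with CpG dinucleotides in capitals.
Vcan, chr13:89742513-89742762, minus strand: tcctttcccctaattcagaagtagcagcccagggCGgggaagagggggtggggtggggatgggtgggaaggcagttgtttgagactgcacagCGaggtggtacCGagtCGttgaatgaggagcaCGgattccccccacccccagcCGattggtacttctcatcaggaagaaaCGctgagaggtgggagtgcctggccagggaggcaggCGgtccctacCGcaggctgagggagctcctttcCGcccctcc
Hapln1, chr13:89540386-89540635, plus strand: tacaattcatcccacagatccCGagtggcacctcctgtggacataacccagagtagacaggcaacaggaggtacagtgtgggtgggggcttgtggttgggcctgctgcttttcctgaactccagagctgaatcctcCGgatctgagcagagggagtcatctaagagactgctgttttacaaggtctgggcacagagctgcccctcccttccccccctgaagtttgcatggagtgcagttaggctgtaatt
Tnr, chr1:159523519-159523768, plus strand: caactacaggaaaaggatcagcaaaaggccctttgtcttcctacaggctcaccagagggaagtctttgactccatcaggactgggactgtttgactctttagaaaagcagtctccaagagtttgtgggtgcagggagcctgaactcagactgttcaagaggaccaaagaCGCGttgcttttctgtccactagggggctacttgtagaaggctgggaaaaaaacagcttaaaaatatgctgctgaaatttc
The Vcan window held 10 CpG dinucleotides, and those of Hapln1 and Tnr held 2 each, where the median of 32851 windows of the same length was 6. The Hapln1 window lies inside the GENCODE gene, which begins at 89539796, whereas the windows of Vcan and Tnr lie outside theirs. The Vcan window also held a CCAAT box (CCAAT) and a GC box (GGGCGG), read on both strands, which occur in 33.9% and 32.7% of all windows. The windows of Hapln1 and Tnr held neither. Neither box was particular to Vcan: Ncan, Bcan, Acan, Tnc and Ptprz1 also held the GC box, and Bcan and Acan the CCAAT box, without being called. None of the 3 held the TATA box letters TATAAA, found in 12.4% of all windows and, among the 9 genes, in those of Ncan and Tnc. Entries were found for 8 of the 9 genes, all but Cspg5. Among the others, Acan, almost undetected here, had the most CpG dinucleotides (26), and Ptprz1, among the most abundant, had 22, so these letters did not order the genes by level. For the windows of Ncan, Bcan and Acan, the bases transcribed after the RefSeq start were not found in a GENCODE transcript of the gene. The same held for the Tnc window at 64046937 to 64047186. Those windows may not lie at the starts used in these cells. No binding or histone mark was measured in these samples.

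The tenascins are large glycoproteins that crosslink the lectican network. Tnc (chromosome 4, 63959785 to 64047015, minus strand) encodes tenascin C, a component of the stem cell niche, and was the most abundant of the 9 genes per kilobase in shControl. Its normalised reads numbered 67008 in shControl, 36732 in replicate 1 and 52875 in replicate 2. Both shPHF2 libraries were below the control, at 54.8% and 78.9% of it, but they differed from each other by 0.53 on the log2 scale, and 18.4% of genes tested differed by more. The log2 difference of -0.60 (SE 0.31) did not pass (limma, adjusted p = 0.23).

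Tnr (chromosome 1, 159523769 to 159931729, plus strand) encodes tenascin R, which binds lecticans tightly and is made by the oligodendrocyte lineage and by some neurons. Its values were 2481 in shControl, 1460 in replicate 1 and 729 in replicate 2. Each shPHF2 library was lower, but at 58.8% and 29.4% of the control, and a larger difference between replicates was seen for only 6.98% of genes tested. The mean of 1095 ± 516 (SD, n = 2) gave a log2 difference of -1.26 (SE 0.36), which just missed the threshold (limma, adjusted p = 0.054). It passed with edgeR (adjusted p = 0.043), with DESeq2 (0.013), in the authors' deposited table (0.013), with a minimum mean of 50 and with TMM scaling, so the call depends on the setting. The adjusted p over all alternatives ranged from 0.013 to 0.26. Tenascin R made up 2.19%, 2.34% and 0.826% of the summed level of both tenascins per kilobase in shControl, replicate 1 and replicate 2.

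Markers of the oligodendrocyte lineage are given beside Tnr because those cells express it. Of 11 markers, 7 were tested, and 0 rose and 0 fell (limma; 1 in each direction at an unadjusted p under 0.05, 0 with edgeR, 1 higher with DESeq2). Their summed level was 69655 in shControl, 64909 in replicate 1 and 84579 in replicate 2, nearly all of it from Olig1 and Olig2. Gpr17 was at 0 in shControl, and Mag and Mog were at 0 in replicate 2. Of the 7, both shPHF2 libraries lay below the control for 5 and above it for 2, where 41.8% and 41.4% of all genes tested lay below and above. Among those below, Pdgfra had 539, 303 and 159 normalised reads and Sox10 23.9, 10.0 and 4.82, and neither passed (limma, adjusted p = 0.071 and 0.32). Among those above, Olig1 had 37506, 38217 and 52987 and Nkx2-2 33.9, 72.5 and 412; Nkx2-2 did not pass in limma (adjusted p = 0.11) and did with DESeq2 (0.0064). These 4 were picked after their values were seen. Their part in the Tnr values was not tested. In libraries made from whole cultures, fewer cells of a type and less RNA per cell cannot be told apart.

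Cspg5 and Ptprz1 encode membrane-bound proteoglycans. Ptprz1 (chromosome 6, 22875502 to 23052916, plus strand) makes a receptor tyrosine phosphatase and, by splicing, a secreted form known as phosphacan; it binds tenascins, contactin 1 and the growth factor pleiotrophin. Its values were 45558 in shControl, 36159 in replicate 1 and 43886 in replicate 2. The shPHF2 libraries were slightly lower, and the log2 difference of -0.19 (SE 0.26) did not pass (limma, adjusted p = 0.66). Cspg5 (chromosome 9, 110243783 to 110262576, plus strand), the gene of neuroglycan C, a transmembrane proteoglycan with an EGF-like domain, had 5014, 4881 and 7142 in the same order. The control value lay between those of the shPHF2 libraries, and the log2 difference of 0.24 (SE 0.24) did not pass (limma, adjusted p = 0.55). Counts were made per gene, so the secreted and membrane forms of PTPRZ1, and the splice forms of versican and tenascin C that differ in their chondroitin sulfate or fibronectin-type regions, could not be separated.

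Ordered by the shPHF2 mean per kilobase of exon, the genes ran Tnc, Bcan, Ncan, Ptprz1, Vcan, Cspg5, Tnr, Hapln1 and Acan. The means ranged from 5765 ± 1469 for Tnc and 4928 ± 331 for Bcan, through 1056 ± 41 for Vcan, to 85.1 ± 40.1 for Tnr (SD, n = 2). Within shPHF2 the libraries of Tnc and Bcan overlapped, as did those of Ncan and Ptprz1 and those of Hapln1 and Acan, so these neighbours were not separated. In shControl, Ptprz1 stood above Ncan and Acan above Hapln1, with the order otherwise alike. With the longest annotated coding transcript as the length, Bcan came first and Ptprz1 passed Ncan in shPHF2, since the exons annotated for Ptprz1 (14.2 kb) are much longer together than its longest coding transcript (8.07 kb). No gene annotated as overlapping 1 of the 9 was among the rows of the table.

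Genes that make, cut and bind this matrix were counted in 6 lists, whose calls stand beside shares of 7.22% higher and 7.11% lower over all genes tested with limma. Their counts at an unadjusted p under 0.05 stand beside 4414 of all 14148 genes tested, both directions together. Such counts are therefore common and are no result about a list. Of 24 genes tested for building and sulfating chondroitin sulfate chains, 3 rose and 0 fell (limma; 7 higher and 1 lower at an unadjusted p under 0.05, 3 and 0 with both edgeR and DESeq2). Csgalnact1, whose enzyme adds the first N-acetylgalactosamine of a chain, had 946 normalised reads in shControl, 2652 in replicate 1 and 2818 in replicate 2. The shPHF2 libraries were close together and far above the control, with a log2 fold change of 1.53 and an SE of 0.18 (adjusted p = 0.0055 in limma). Chpf2, of the enzymes that extend the chain, rose from 2522 to 4882 ± 276, and Chst12, a chondroitin 4-O-sulfotransferase, from 245 to 523 ± 36.0 (SD, n = 2; limma, adjusted p = 0.015 and 0.034). The list had a median log2 fold change of 0.30, beside -0.01 over all genes tested.

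Among 14 genes of hyaluronan synthesis, breakdown and binding, 2 rose and 0 fell (limma; 2 higher and 3 lower at an unadjusted p under 0.05, 2 and 1 with both edgeR and DESeq2). The larger change was that of Cemip, listed in the table under its older symbol 9930013L23Rik, a hyaluronan-binding protein needed for hyaluronan breakdown. It had 512 normalised reads in shControl, 5431 in replicate 1 and 2759 in replicate 2. Each shPHF2 library was far above the control, at 1060% and 538% of it, and the log2 fold change was 2.91 with an SE of 0.35 (adjusted p = 0.0056 in limma). Hyal1, a lysosomal hyaluronidase, rose from 260 to 469 in replicate 1 and 611 in replicate 2 (limma, adjusted p = 0.047). The synthase genes Has1, Has2 and Has3, named after their values were seen, did not pass, at log2 differences of 0.71, -2.14 and -0.67 (SE 0.65, 0.91 and 0.35). Has1 and Has2 had few reads, at 23, 52 and 28 and at 47, 19 and 5 in shControl, replicate 1 and replicate 2. Has3 had 640, 631 and 253 reads. The median of the list was -0.06.

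Of 13 matrix protease and inhibitor genes, 4 rose and 1 fell (limma; 6 higher and 3 lower at an unadjusted p under 0.05, 4 and 2 with edgeR, 3 and 1 with DESeq2). Adamts5, a major aggrecan-cutting protease, had 542 normalised reads in shControl, 2304 in replicate 1 and 2725 in replicate 2. The shPHF2 libraries were at 425% and 502% of the control, with a log2 fold change of 2.21 and an SE of 0.20 (adjusted p = 0.0036 in limma). Adamts1, which cuts versican and aggrecan, rose from 2216 to 3953 ± 484, and the metalloproteinase inhibitor gene Timp2 from 1550 to 3774 ± 83.3 (SD, n = 2; limma, adjusted p = 0.027 and 0.0068). Mmp14, a membrane-bound metalloproteinase, stood at 146 in shControl, 360 in replicate 1 and 1090 in replicate 2 (limma, adjusted p = 0.043), and its call was lost with DESeq2 (adjusted p = 0.22). Adamts8, of the same protease family as Adamts5, fell from 293 to 48.4 in replicate 1 and 95.2 in replicate 2, with a log2 fold change of -2.09 and an SE of 0.50 (adjusted p = 0.033 in limma). Members of this family moved in both directions, and the median of the list was 0.44.

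**Figure D4:**
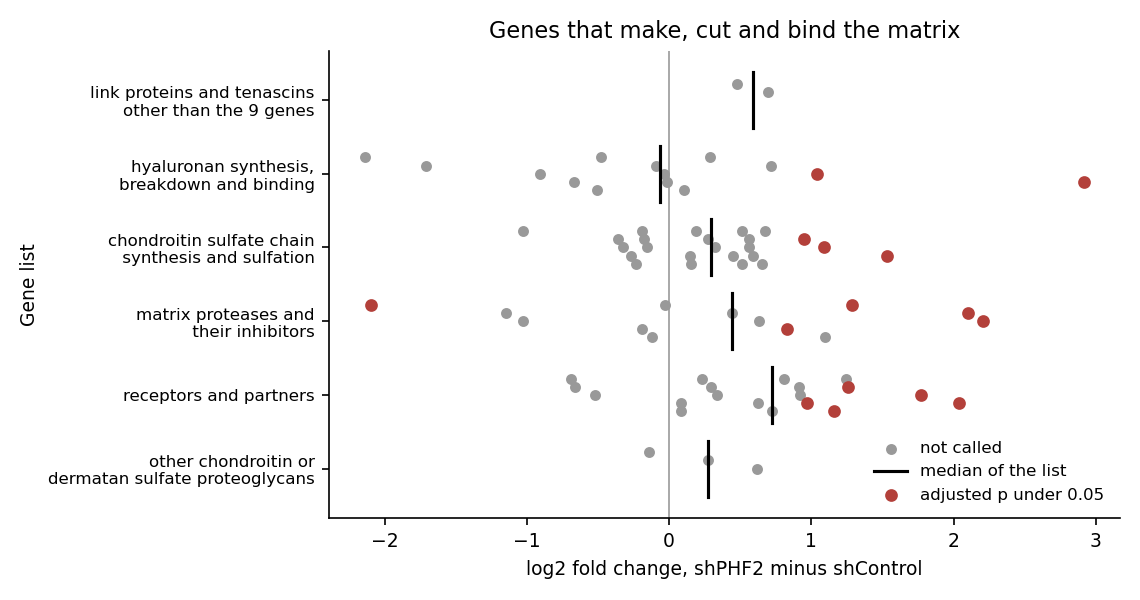
log2 fold change of shPHF2 against shControl (horizontal axis) for each tested gene of the 6 lists, with 1 point per gene, called genes in red and the list median as a black bar. Called genes lie mostly to the right, with Adamts8, at -2.09, the 1 called gene on the left, and Cemip, at 2.91, farthest to the right.

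Of 19 receptors and partners of these matrix proteins, 5 rose and 0 fell (limma; 8 higher and 2 lower at an unadjusted p under 0.05, 5 and 1 with edgeR, 8 and 1 with DESeq2). Rtn4rl1 encodes a Nogo receptor family member that binds chondroitin sulfate chains, and it had 166 normalised reads in shControl, 716 in replicate 1 and 656 in replicate 2. Itgav, the alpha V chain of integrins that bind tenascin C and other matrix proteins, had 9791, 20654 and 23233 in the same order. In both genes the shPHF2 libraries were close to each other and at least 211% of the control, with log2 fold changes of 2.04 and 1.16 (limma, adjusted p = 0.0065 and 0.013). The adhesion molecule genes Nrcam and Nfasc rose by 1.26 and 1.77 on the log2 scale, and the receptor phosphatase gene Ptprd by 0.97 (limma, adjusted p = 0.0096, 0.045 and 0.018). Nfasc had 82.7 in shControl, 194 in replicate 1 and 416 in replicate 2, so replicate 2 carried much of its change. The median of the list was 0.72.

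The 2 remaining lists had few genes above the minimum mean. Of the link proteins and tenascins other than the 9 genes, 2 of 5 were tested (Hapln3 and Hapln4, above). The tenascin genes Tnn and Tnxb had at most 11 reads in any library. Of 9 other chondroitin or dermatan sulfate proteoglycan genes, 6 were in the table and 3 were tested, with 0 called by limma, edgeR or DESeq2 and 0 at an unadjusted p under 0.05 in limma. In all 6 lists together 14 genes rose and 1 fell among 75 tested with limma, beside 7.22% and 7.11% of all genes. This split depends on the test. Hmmr, Adamts4 and Egfr were lower in both shPHF2 libraries and missed the limma threshold (adjusted p = 0.051, 0.051 and 0.061). They passed as lower with edgeR (adjusted p = 0.046, 0.041 and 0.049). With DESeq2, Hmmr and Egfr passed as lower (adjusted p = 0.019 and 0.016), and Ptn, Ptprf and Itga8 as higher (0.021, 0.020 and 0.022). These genes were named after their values were seen. The lists were drawn up with earlier results known, and all 15 limma calls were lost in the 3 settings in which limma called 0 genes.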

How the data were processed

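Ribosome-depleted RNA of 1 shControl and 2 shPHF2 libraries was sequenced with a strand-specific kit, per the labels' protocols. HISAT2, HTSeq, DESeq2 and mm10 are named, per the submitters' processing notes; versions, annotation and strand setting: not given in the sources used here. The deposited signal is read as the authors' gene counts over DESeq2 size factors, from those notes and the values: 100% of values were whole multiples of 1 step per library (tolerance 0.001), a weaker check for shControl, whose step lies near 1, and reads were recovered from these steps (size factors 1.00, 1.20 and 0.829). The authors' deposited log2 fold change, Wald score, p-value and adjusted p-value come from DESeq2, per the file headers; 4280 genes have no adjusted p-value. The 4 rows that name no gene were left out.

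log2(value + 1) was fitted with limma 3.58.1 (mean-variance trend, R 4.3.3) for 14148 genes with a mean of at least 10, two-sided, with Benjamini-Hochberg adjustment and a threshold of 0.05; the fit was tested on simulated data. Fold changes on this scale understate the change of low genes. The fit has 1 residual degree of freedom, from the shPHF2 libraries, and 6.94 prior ones. The single shControl library is taken to have that same spread. The simulated data gave all libraries the same spread, so they could not test this assumption. edgeR 4.0.16 and DESeq2 1.42.0 on recovered reads were alternatives. Intervals on reads cover counting error only. The members and gene lists were chosen with earlier results of these data known. All 9 members are named, and of each list every called gene where at most 8 were called, and each link protein gene. Lengths and positions come from GENCODE M21 and start regions from RefSeq (GRCm38.p6). Symbols matched 12 of 12 genes looked up for length.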

Additional observations from a re-analysis of the deposited data

How the results depend on the processing

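No tested member changed direction under any alternative setting that gave it a value, or without either shPHF2 replicate, except Cspg5, whose log2 difference was -0.04 without replicate 2 and 0.51 without replicate 1. limma called 0 genes of all, and 0 members higher or lower, with no filter on low values, without the mean-variance trend and with quantile normalization, with 3893, 3300 and 3700 genes at an unadjusted p under 0.05. The count of members called lower went from 0 to 1, in each case Tnr, with a minimum mean of 50, TMM factors, edgeR, DESeq2 and the authors' deposited DESeq2 calls; the cause was not tested. Elsewhere the count over all genes stayed between 1979 and 2289. Without 1 shPHF2 library no residual spread is left, so those values have no test: log2 fold changes then ranged from 0.82 to 0.90 for Vcan and from -1.76 to -0.76 for Tnr. No paired analysis was possible because shControl has 1 library and its label carries no replicate number. Depth limits Hapln1 and Acan, with at most 6 and 26 reads.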

Other observations

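Among the marker lists, 3 genes passed the test, all higher in shPHF2, where 7.22% of all genes tested were called higher and 7.11% lower. The 7 lists had 10, 8, 7, 8, 2, 3 and 2 genes tested, so this count is no result about the markers. The 3 genes were picked for their calls after the values were seen. Sox2, a transcription factor of neural stem cells, had 5893 normalised reads in shControl, 10114 in replicate 1 and 8819 in replicate 2, a log2 fold change of 0.68 (limma, adjusted p = 0.048; edgeR, 0.054). S100b, a calcium-binding protein of astrocytes, stood at 331, 1094 and 850 in the same order, a log2 fold change of 1.54 (limma, adjusted p = 0.011). Gad1, the enzyme that makes the transmitter GABA in inhibitory neurons, stood at 138, 720 and 500, a log2 fold change of 2.12 (limma, adjusted p = 0.0085). In each gene both shPHF2 libraries were above the control. They were 1 of 10 neural stem cell markers, 1 of 8 astrocyte markers and 1 of 8 neuron markers tested, with 0 lower in each list by limma (at an unadjusted p under 0.05, Pax6 and Map2 were lower). With DESeq2 1 neuron marker was lower, Map2 (adjusted p = 0.020), and 3 neural stem cell markers were higher, Sox2, Vim and Prom1. Over all genes tested, both shPHF2 libraries lay above the control for 41.4% and below it for 41.8%. Of the 8 neuron markers, both lay above it for 3 (Gad1, Tubb3 and Neurod1) and below it for 3 (Map2, Rbfox3 and Snap25). The control value lay between those of the shPHF2 libraries for Dcx and Syt1. Of the 8 astrocyte markers tested, both shPHF2 libraries lay above the control for 5, S100b among them, and below it for 2. The list had a median log2 fold change of 1.01. The other astrocyte markers follow, in the order shControl, replicate 1 and replicate 2. Slc1a2 had 744, 1445 and 885 normalised reads and Aqp4 0, 6.67 and 37.4. Gfap had 1.99, 10.8 and 20.5 normalised reads and Aldh1l1 146, 152 and 1009. Aldoc had 4772, 3998 and 1522 and Gja1 3853, 2158 and 3284, both below the control in each shPHF2 library, and Glul varied little, at 15777, 14542 and 15903. None of these other astrocyte markers passed in limma or edgeR, nor in DESeq2, which gives Gfap and Aqp4 no adjusted p.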
